A study of Danio rerio with 33 samples.

Results

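The liver of adult female zebrafish was compared with the gut of adult female zebrafish for all known mature miRNAs with a read count in either tissue. The libraries were chosen by their labels as the 3 Female Liver and the 3 Female Gut replicates. They are 6 of the 32 small RNA libraries with a column in the deposited count table. Of the 247 miRNAs of that table, 233 had at least 1 count in these 6 libraries. Both groups were untreated wild type fishes of the Singapore strain, bought from a local supplier, and each replicate was RNA pooled from the tissue of 4 to 5 fishes, so the spread between replicates is a spread between pools. The age of the adult fishes is not given in the sources used here. The series as a whole profiled known miRNAs over 11 sample groups to find those associated with a tissue or a sex. The libraries of all these groups entered the same fit, so each group bears on the scaling and the estimated spread. The female difference was also set against that of male liver and male gut of the same strain, 3 libraries of each. Levels of these and of other groups are given for single miRNAs and lists.

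miRNAs are small RNAs that guide Argonaute proteins to messenger RNAs and lower their stability or translation, and many of them are restricted to a few cell types. The liver is built mainly of hepatocytes, which carry miR-122 as their defining miRNA, while the gut wall joins an absorptive epithelium, rich in miR-192 and miR-194 in vertebrates, to layers of smooth muscle, in which miR-143 and miR-145 are the known markers. Other miRNAs follow position along the body rather than cell type: the genes of miR-10 and miR-196 lie inside the Hox clusters, whose members are switched on in order from head to tail. Whole tissue was sequenced, so that fewer cells of a type and less miRNA per cell cannot be told apart in any of the values below.

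Levels are given in CPM, the usual unit of read counts relative to the total of their library, after scaling by TMM, the trimmed mean of M-values, which assumes that most miRNAs do not differ between libraries. Totals on known miRNAs were 634612 to 2589521 counts in the female liver libraries and 2662337 to 4670838 counts in the female gut libraries. The TMM factors were 0.503 to 0.715 in female liver, against 0.815 to 0.910 in female gut, so that the scaled levels of a female liver library sum to more than those of an unscaled one. Replicates of female liver correlated at r = 0.989 to 0.994 and those of female gut at 0.996 to 0.997 over log2 levels, against 0.943 to 0.965 between the tissues, across miRNAs that are not independent of each other. The median coefficient of variation over 189 miRNAs with a mean of at least 10 CPM was 20.0% in female liver and 12.1% in female gut. Female liver replicate 3 was the least deeply sequenced of these libraries. Female liver replicate 2 had a TMM factor of 0.503, apart from 0.715 and 0.690 in replicates 1 and 3, which raises its scaled levels. How far depth or scaling bears on the larger spread of female liver was not tested.

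Of 238 miRNAs tested with edgeR against a log2 fold change of 1 (glmTreat, adjusted p at most 0.05), 57 differed, which is a percentage of 23.9. Of these, 23 miRNAs (9.66%) were higher in female liver and 34 (14.3%) were lower, and for each of the 57 the 3 female liver libraries lay entirely above or entirely below the 3 female gut libraries. Such separation was common, as 75 miRNAs (31.5%) lay above and 90 (37.8%) below, together 69.3% of those tested, and the remaining 68 with a count overlapped. The median log2 fold change over the 233 miRNAs was −0.06. With scaling to library size alone that median moved by −0.48, and the share of calls that were higher in female liver was 12.3%, against 40.4% with TMM and 46.0% with the size factors of DESeq2. All 34 miRNAs called lower stayed called under each of these scalings, whereas 9 of the 23 called higher did, namely miR-122, miR-729, miR-18c, miR-16b, miR-499, miR-101b, miR-722, miR-363 and let-7g.

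**Figure D1:**
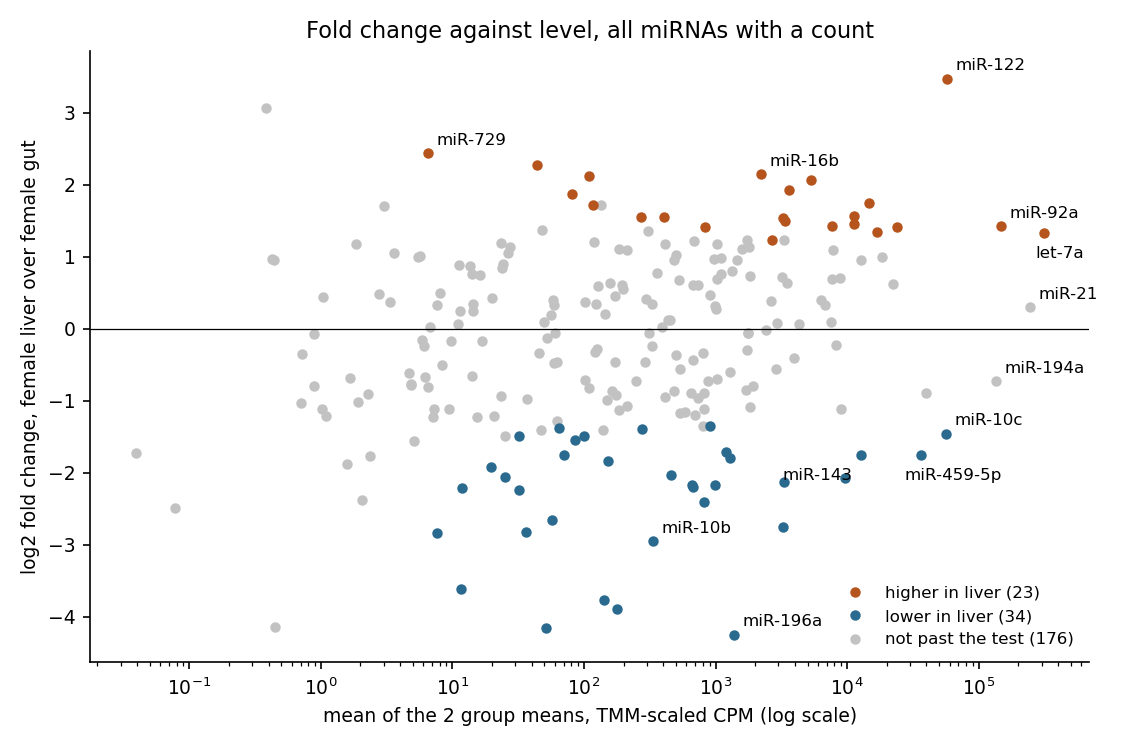
Log2 fold change of female liver over female gut (vertical axis) against the mean of the 2 group means in TMM-scaled CPM (horizontal axis, log scale) for the 233 miRNAs with a count; orange marks 23 higher in liver, blue 34 lower in liver and grey those not past the test. The abundant miR-122 stands highest at 3.48, and miR-196a lies lowest at −4.25.

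The most abundant miRNAs were largely shared, with 4 of the 5 leading miRNAs common to both tissues. In female liver the order was let-7a, miR-21, miR-92a, miR-122 and miR-194a, together 70.6% ± 1.32 of all counts (mean ± SD, n = 3), and in female gut it was miR-21, let-7a, miR-194a, miR-10c and miR-92a, together 64% ± 1.91 (SD, n = 3). miR-21, a miRNA abundant in many vertebrate tissues, had 238670, 355193 and 216152 CPM in female liver and 202984, 220692 and 233900 CPM in female gut. These scaled levels overlapped, and its log2 fold change of 0.30 ± 0.14 (fitted value ± standard error, as for all log2 fold changes) was not past the test. With library size alone it turned in sign, at −0.21. As a share of all counts miR-21 made up 16.6% ± 1.54 of female liver and 19.3% ± 1.78 of female gut (SD, n = 3 each). These shares did not overlap, but narrowly, with the highest liver library at 17.881% and the lowest gut library at 17.996%. The exact two-sided permutation test on them gave p = 0.1, the smallest possible. miR-92a, a member of the miR-17-92 cluster that promotes proliferation in mammals, had 177096, 281603 and 191794 CPM in female liver, against 74788, 84346 and 82760.1 CPM in female gut. Its female liver level was 2.69-fold higher (log2 fold change 1.43 ± 0.15, adjusted p = 0.00439), a call that was lost with library size alone (log2 fold change 0.92).

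The defining miRNA of hepatocytes, miR-122, had the largest positive log2 fold change of all miRNAs. It had 77658, 124047 and 114800 CPM in female liver, against 11329, 7977 and 9118 CPM in female gut. Every female liver library was thus far above every female gut library, with the replicate 1 library the lowest of the liver and the highest of the gut. The difference was 11.1-fold (log2 fold change 3.48 ± 0.34, adjusted p = 2.42e-07). As a share of all counts miR-122 made up 6.57% ± 1.22 of female liver and 0.837% ± 0.19 of female gut. The female gut libraries therefore held a measurable level of the hepatocyte miRNA, 11329, 7977 and 9118 CPM, against 2355, 2339.6 and 1855 CPM in male gut, and how far liver tissue contributed to them was not tested. Outside liver and gut its highest library was one of ovary, at 2091 CPM, and in eye it was between 0 and 0.965 CPM.

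The let-7 family, which in animals accumulates as cells leave proliferation and differentiate, took the largest share of the female liver counts of any list. Its 10 members made up 34.9% ± 0.332 of all counts in female liver and 20.7% ± 0.268 in female gut (SD, n = 3 each), a difference of 14.2 percentage points. The libraries did not overlap, and the exact two-sided permutation test gave p = 0.1, the smallest that 3 against 3 libraries allow. Of the 10 members 6 were called higher and none lower, beside 9.66% and 14.3% of all miRNAs tested. The family median log2 fold change was 1.28, against −0.06 over all miRNAs. With library size alone the family median was 0.78, only let-7g kept its call, and let-7i turned in sign, at 0.28 with TMM and −0.21 with library size.

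The let-7 members did not move as a block. let-7a, which alone held 27.6% ± 0.561 of the female liver counts and 15.5% ± 0.393 of the female gut counts, had 378796, 548560 and 408910 CPM in female liver and 166002, 194753 and 171809 CPM in female gut. Its fold change was 2.51 (log2 1.33 ± 0.13, adjusted p = 0.00926). let-7g was the member with the largest change, at 20019, 27933 and 20071 CPM in female liver, against 6712, 7089 and 6441 CPM in female gut, a 3.36-fold difference (log2 1.75 ± 0.13, adjusted p = 4.86e-06). let-7f, let-7h, let-7e and let-7j were also called higher, with log2 fold changes of 1.57, 1.42, 1.34 and 1.23. The other members were not called, and let-7c and let-7d pointed the other way. let-7c had 7565, 8443 and 6882 CPM in female liver and 8271, 9763 and 8644 CPM in female gut, and let-7d had 2255, 2649.6 and 2075 CPM in female liver and 3193, 3929 and 3196 CPM in female gut. The let-7d libraries did not overlap, at a log2 fold change of −0.56 ± 0.13, while those of let-7c did. Reads of such close relatives may be counted on more than one member, so the values of single let-7 miRNAs are uncertain in that respect.

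Both members of the miR-148 and miR-152 family, which in mammals represses the DNA methyltransferase DNMT1, were called higher in female liver. Over all miRNAs tested, 9.66% were called higher. miR-148 had 4165, 6072 and 4300.3 CPM in female liver, against 1564, 1699 and 1732 CPM in female gut, 2.91-fold higher (log2 1.54 ± 0.14, adjusted p = 6.38e-04). miR-152 had 1067, 1439.9 and 1140.2 CPM in female liver, against 409, 476 and 488 CPM in female gut, 2.66-fold higher (log2 1.41 ± 0.15, adjusted p = 0.00624). Both calls were lost with library size alone, at log2 fold changes of 1.04 and 0.92.

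The 20 miRNAs of the miR-17-92 cluster and its paralogs all had a positive log2 fold change with TMM, from 0.19 to 2.28 with a median of 1.12. Of the 20, 4 were called higher, beside 9.66% of all miRNAs. Some of them are arms of the same hairpin or neighbouring genes, so the 20 are not independent of each other. With library size alone 16 of the 20 stayed positive, with a median of 0.60, and 2 stayed called. Those called were miR-92a, described above, and 3 members of the paralog cluster miR-18c, miR-19c, miR-20b and miR-363, whose genes lie next to each other in the zebrafish RefSeq annotation (GRCz12tu, neighbours up to 10000 bases apart). miR-18c had 49.1, 107 and 61.7 CPM in female liver, against 15.1, 17.1 and 13.6 CPM in female gut. miR-20b had 161, 250.1 and 123 CPM in female liver, against 52.9, 71.9 and 39.2 CPM in female gut. miR-363 had 117, 137 and 128 CPM in female liver, against 31, 47.2 and 26 CPM in female gut. Each of these miRNAs was separated between the tissues, with log2 fold changes of 2.28 ± 0.28, 1.73 ± 0.26 and 1.87 ± 0.24 and adjusted p of 1.28e-04, 0.00542 and 7.95e-04. The fourth member of the cluster, miR-19c, was not called, at 1.36 (adjusted p = 0.059). Among the paralog pairs, miR-20b rose while its more abundant relative miR-20a-5p did not pass the test (log2 fold change 0.96 ± 0.12), so that the ratio of miR-20b to miR-20a-5p was 0.268, 0.328 and 0.222 in female liver and 0.164, 0.212 and 0.12 in female gut.

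Outside these families, miR-16b, which in mammals restrains the cell cycle, had 2614, 4501 and 3679 CPM in female liver, against 839, 838 and 756 CPM in female gut. It was 4.43-fold higher (log2 2.15 ± 0.15, adjusted p = 1.07e-07) and the only one of the 8 members of the miR-15 and miR-16 family past the test. That share is near the 9.66% of all miRNAs tested that were called higher. The family median was −0.11, and miR-16a, at 217, 253 and 228 CPM in female liver and 152, 157 and 170.1 CPM in female gut, had a log2 fold change of 0.55. miR-101b had 7380.1, 10678 and 7458 CPM in female liver, against 2113, 2055 and 1926 CPM in female gut, 4.19-fold higher (log2 2.07 ± 0.15, adjusted p = 2.67e-07). Its relative miR-101a was not called, at 8173, 11606 and 8537 CPM in female liver and 5874, 6286 and 5357 CPM in female gut. In the miR-30 family, which is abundant in many epithelia, miR-30e-5p and miR-30c were called higher at log2 fold changes of 1.46 and 1.41, whereas miR-30b was at 0.32 with TMM and −0.17 with library size alone. miR-181b, known for its role in mammalian lymphocytes, had 4059, 6045 and 4883 CPM in female liver, against 1853, 1667 and 1795 CPM in female gut (log2 1.50 ± 0.18, adjusted p = 0.00573).

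Of the miR-722 to miR-740 group, a numbered series of miRNAs named in fish, 17 had a count and 2 rose, a share near the 9.66% of all miRNAs that did, and the group median was 0.02 with TMM and −0.52 with library size alone. miR-722 had 4685, 7135 and 5317 CPM in female liver, against 1571, 1519 and 1394 CPM in female gut, 3.82-fold higher (log2 1.93 ± 0.14, adjusted p = 7.47e-07). miR-729 was rare, at 9.99, 12.3 and 11.4 CPM in female liver and 2.82, 1.99 and 0.826 CPM in female gut (log2 2.44 ± 0.49, adjusted p = 0.00454). miR-499, which lies in a slow myosin heavy chain gene in vertebrates, had 199.8, 182 and 153 CPM in female liver, against 74.6, 24.6 and 21.1 CPM in female gut (log2 2.13 ± 0.35, adjusted p = 0.0021). It was the only one of the 8 striated muscle miRNAs past the test, a share near the 9.66% of all miRNAs called higher. The summed level of that list was 482 to 952 CPM in female liver and 426 to 698 CPM in female gut, and its defining member miR-1 was at 14.2, 9.21 and 9.14 CPM in female liver and 20.7, 15.1 and 16.5 CPM in female gut, so the muscle miRNAs did not rise as a group. Lastly, miR-107b and miR-456 were 2.93-fold and 2.93-fold higher in female liver, with adjusted p of 0.00111 and 0.003.

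**Figure D2:**
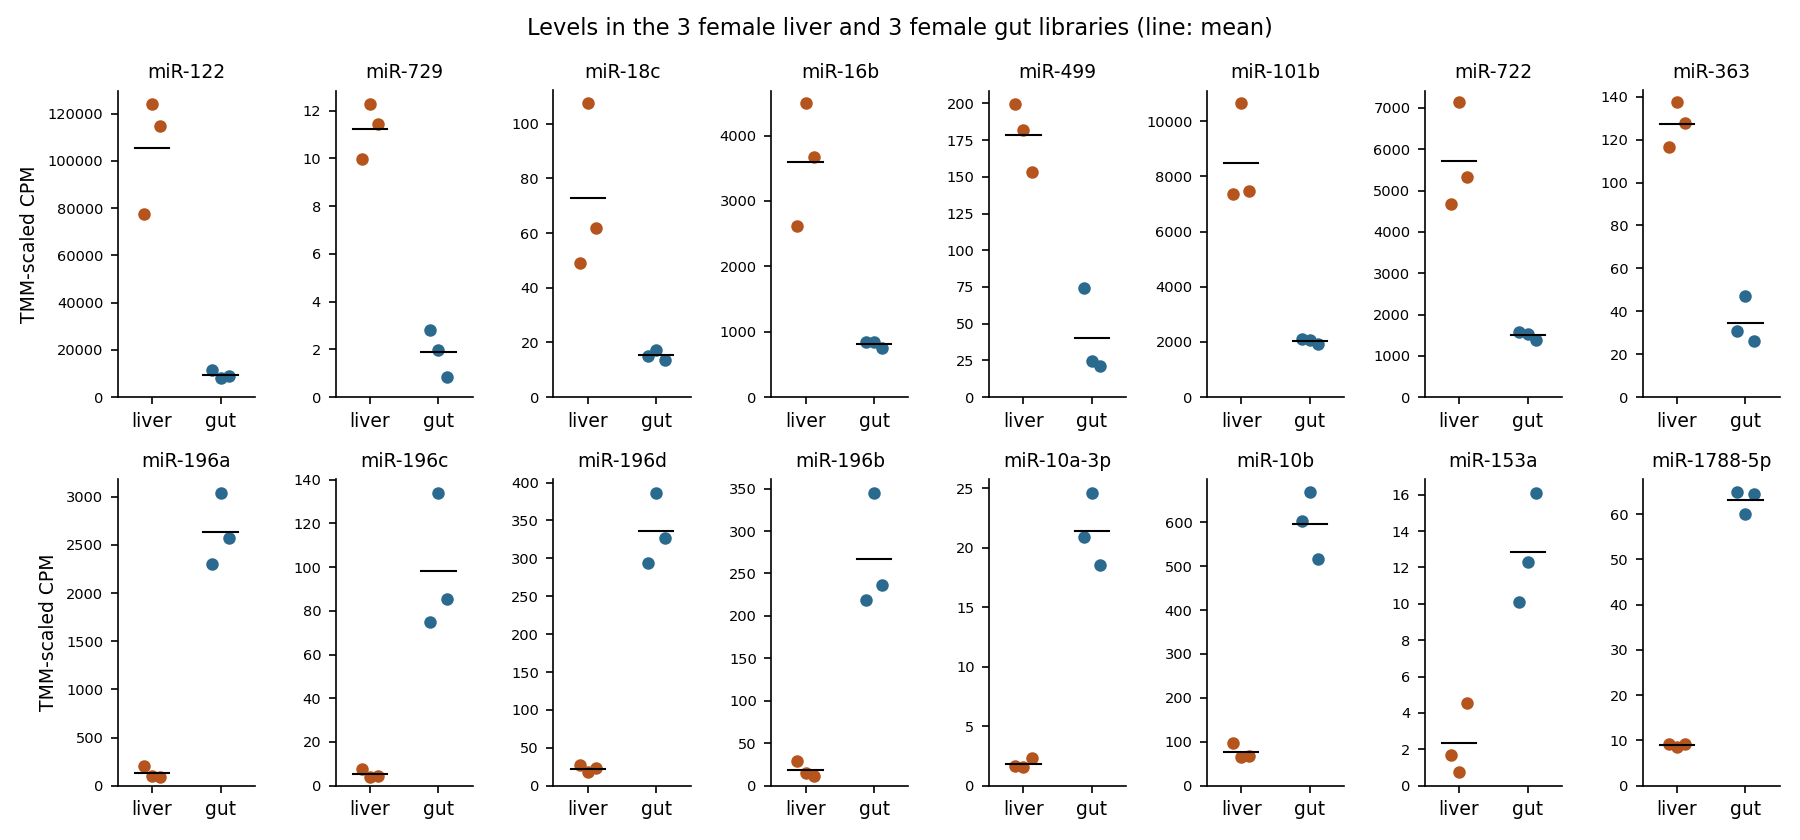
TMM-scaled CPM (vertical axis, linear and starting at 0, scaled to each miRNA) in the 3 female liver libraries (orange, left) and the 3 female gut libraries (blue, right) for the 8 called miRNAs with the largest and the 8 with the smallest log2 fold change; the line is the mean. In none of these 16 miRNAs do the libraries of the tissues overlap, and for miR-122 the liver libraries reach 124047 CPM while the highest gut library is at 11329 CPM.

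The largest differences in size among the called miRNAs were those of the miR-196 members, which are Hox cluster miRNAs and were lower in female liver. All 10 members of the miR-10 and miR-196 families had a negative log2 fold change under each scaling, with a median of −3.28. Of the 10, 8 were called lower, beside 14.3% of all miRNAs tested. miR-196a, which restrains Hox genes in vertebrates, had 209, 104 and 93.7 CPM in female liver, against 2300.5, 3038 and 2574 CPM in female gut. It was 19-fold higher in the gut (log2 fold change of liver over gut −4.25 ± 0.35, adjusted p = 1.30e-08). miR-196b had 29.1, 14.6 and 11.4 CPM in female liver, against 219, 345 and 237 CPM in female gut. miR-196c had 7.49, 3.84 and 4.57 CPM in female liver, against 75, 134 and 85.4 CPM in female gut. miR-196d had 26.6, 18.4 and 22.8 CPM in female liver, against 294, 386 and 326 CPM in female gut. The miR-196 members thus lay close together, with log2 fold changes of −3.76, −4.16 and −3.89 beside that of miR-196a, although reads shared between near-identical members could bring such values together.

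The miR-10 members spread more widely. miR-10a-3p and miR-10b had log2 fold changes of −3.61 ± 0.54 and −2.95 ± 0.31, miR-10a-5p had −2.76 ± 0.32, and miR-10c, by far the most abundant of them, had −1.46 ± 0.25 (adjusted p = 1.79e-04, 1.40e-06, 5.82e-06 and 0.0424). The value of miR-10a-3p rests on only 2, 2 and 1 counts in female liver, against 89, 62 and 45 counts in female gut, so its size is uncertain. miR-10b had 96.6, 64.4 and 68.5 CPM in female liver, against 603, 668 and 517 CPM in female gut. miR-10c had 31442, 34069.5 and 25354 CPM in female liver, against 79901, 90228 and 79572 CPM in female gut. Its share of all counts was 1.9% ± 0.298 in female liver and 7.29% ± 0.0601 in female gut. The miR-10c call was lost in 5 of the 6 fits without 1 library, namely when any single female gut library, or female liver replicate 2 or 3, was left out, with adjusted p from 0.0275 to 0.0946 over the 6 fits. Both arms of miR-10d were rare and not called.

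The miRNAs of the intestinal epithelium were lower in female liver to unequal degrees. All 5 list members had a negative log2 fold change under each scaling, with a median of −1.76. Called lower were miR-194b, miR-459-3p and miR-459-5p, beside 14.3% of all miRNAs tested. miR-194b had 1356, 1026 and 1312 CPM in female liver, against 5361, 5900.1 and 4838 CPM in female gut, 4.36-fold higher in the gut (log2 of liver over gut −2.13 ± 0.19, adjusted p = 3.13e-06). miR-459-5p, of a fish miRNA expressed in the zebrafish intestine, had 15953, 17806 and 16436 CPM in female liver, against 56335, 62544 and 50846 CPM in female gut (log2 −1.76 ± 0.33, adjusted p = 0.0156), and without female liver replicate 2 its call was lost (adjusted p = 0.052). The abundant miR-192 and miR-194a, whose genes lie next to each other and which are known from mammalian liver as well as intestine, were not called. miR-194a had 95325, 116829 and 93458 CPM in female liver and 163834, 184814 and 158952 CPM in female gut, at a log2 fold change of −0.73 ± 0.40. miR-192 had 25511, 32220 and 26392 CPM in female liver and 49694, 61862 and 44540.3 CPM in female gut, at −0.89 ± 0.38. Neither overlapped between the tissues. Summed over the list, the intestinal miRNAs came to 138271 to 168443 CPM in female liver and 260903 to 317423 CPM in female gut, so their level in the liver libraries was high. No list member was at 0 in any female liver library, and how far intestinal tissue contributed to the liver libraries was not tested.

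The miR-200, miR-141 and miR-429 miRNAs, which hold cells in an epithelial state by repressing the ZEB transcription factors, were lower in female liver. Of the 6 members 5 were called lower, beside 14.3% of all miRNAs tested. All 6 were negative under each scaling, with a median of −2.10. miR-200c had 292, 247 and 231 CPM in female liver, against 1207, 1617 and 1272 CPM in female gut, 5.29-fold higher in the gut (log2 of liver over gut −2.40 ± 0.32, adjusted p = 1.37e-04). miR-141 had 439, 332 and 304 CPM in female liver, against 1463, 1918 and 1476 CPM in female gut. The neighbouring genes miR-141, miR-200c and miR-429b were all called, at −2.17, −2.40 and −2.65. In the other neighbourhood miR-200a and miR-200b were called, at −1.71 and −2.04, and miR-429a was not, at −1.40 (adjusted p = 0.181). The summed level of the list was 1270 to 1663 CPM in female liver and 5316 to 6936 CPM in female gut. The epidermal miR-203 and miR-205, by contrast, overlapped between the tissues in all 4 members, and none was called.

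Both miRNAs of smooth muscle were called lower in female liver, beside 14.3% of all miRNAs tested. miR-143 had 6661, 5433 and 5434 CPM in female liver, against 19894, 22059 and 17319 CPM in female gut, 3.38-fold higher in the gut (log2 of liver over gut −1.76 ± 0.19, adjusted p = 2.85e-04). miR-145 had 4033, 3938 and 3119 CPM in female liver, against 16093, 18078 and 12328 CPM in female gut, 4.19-fold higher in the gut (−2.07 ± 0.25, adjusted p = 1.87e-04). Their sum was 8553 to 10694 CPM in female liver and 29647 to 40137 CPM in female gut. The endothelial miR-126a-3p had 4467, 4914 and 3919 CPM in female liver and 4130.1, 4759.9 and 3833 CPM in female gut, its libraries overlapped, and none of the 4 list members was called. The counts of miR-126a-5p and miR-126b-5p were nearly the same in every library and may stem from the same reads.

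Among the blood cell miRNAs, 2 of the 8 of leukocytes fell in female liver, beside 14.3% of all miRNAs, and those of erythrocytes were not called. Of the leukocyte miRNAs 7 had a negative log2 fold change, with a list median of −1.06. Without overlap 5 lay lower, beside 37.8% of all miRNAs tested. With library size alone 5 of the 8 were called lower, beside 64 of all 238 miRNAs. The sum of the list overlapped, at 4195 to 5608 CPM in female liver and 5207 to 6196 CPM in female gut. miR-155, induced in activated immune cells of mammals, had 9.99, 10.7 and 6.85 CPM in female liver, against 43, 39.7 and 39.6 CPM in female gut (log2 −2.07 ± 0.34, adjusted p = 0.003). miR-142a-3p, found across blood cells, had 545, 532 and 455 CPM in female liver, against 1329.8, 1421 and 1178 CPM in female gut (log2 −1.35 ± 0.16, adjusted p = 0.0191). The exception in direction was miR-146a, at 2691, 2088 and 1729.7 CPM in female liver and 1242, 902 and 867 CPM in female gut, which was not called (log2 1.11 ± 0.24). The erythroid miR-451 had 7686, 9323 and 6509.9 CPM in female liver and 7725, 8229 and 6016 CPM in female gut, and these libraries overlapped.

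Of 17 miRNAs known from neurons and neuroendocrine cells, 7 were called lower in female liver and none was called higher. Over all miRNAs tested, 14.3% were called lower and 9.66% higher. The median log2 fold change of the list was −1.21, over 12 negative and 5 positive values. With library size alone 10 of the 17 were called lower, beside 64 of all 238 miRNAs. miR-138 had 239.8, 236 and 247 CPM in female liver, against 981, 1272 and 1041 CPM in female gut, 4.57-fold higher in the gut (log2 of liver over gut −2.19 ± 0.19, adjusted p = 1.61e-06). miR-129-5p had 66.6, 68.3 and 64 CPM in female liver, against 208, 268 and 239 CPM in female gut. miR-7a had 8.33, 7.67 and 9.14 CPM in female liver, against 29.6, 34.5 and 29.3 CPM in female gut. The remaining called members were miR-153a, miR-153b, miR-137 and miR-9-5p, at log2 fold changes of −2.84, −2.22, −1.55 and −1.40. Counts in female liver were only 2, 1 and 2 for miR-153a and 6, 4 and 2 for miR-153b, so the size of these changes is uncertain. The calls of miR-137 and miR-9-5p were each lost in 3 of the 6 fits without 1 library. Those of miR-153b and miR-7a were each lost in 1 such fit. The 5 positive members were miR-132-5p, miR-219, miR-212, miR-132-3p and miR-128, at 1.18, 0.88, 0.77, 0.67 and 0.61. Of these, miR-128 alone lay higher in all liver libraries, at 635, 979 and 841 CPM in female liver and 551, 585 and 472 CPM in female gut. miR-138 was far below its brain level, a median of 56586 CPM in female brain, and the defining neuronal miR-124 was at 3.33, 6.14 and 0 CPM in female liver and 5.17, 10.7 and 2.89 CPM in female gut. The pancreatic miR-216a, miR-216b, miR-217 and miR-375 all lay lower in female liver without overlap, as did 37.8% of all miRNAs tested. Their log2 fold changes were −1.07, −0.79, −1.11 and −1.36, and none was called. With library size alone all 4 were called lower, beside 64 of all 238 miRNAs. Their sum was 1990 to 2991 CPM in female liver and 4642 to 5509 CPM in female gut, so both tissues carried these miRNAs, and how far pancreatic tissue contributed to either was not tested.

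Among called miRNAs of no list, miR-31 had 281, 274 and 159.9 CPM in female liver, against 824, 1374 and 1066 CPM in female gut (−2.17 ± 0.27, adjusted p = 1.79e-04). Both arms of miR-1788 were also lower in female liver, miR-1788-5p at 9.16, 8.44 and 9.14 CPM, against 64.9, 60 and 64.4 CPM in female gut, and miR-1788-3p at 12.5, 12.3 and 6.85 CPM, against 47.3, 59.6 and 55.3 CPM in female gut. In the miR-34 family, a target of p53 in vertebrates, miR-34a was called lower at −1.76 ± 0.22, and the other members were negative and not called. Over all miRNAs tested, 14.3% were called lower. The gonad miRNA miR-202-5p had 574, 319 and 526 CPM in female liver and 529.9, 458 and 310.0 CPM in female gut, which overlapped. miR-430, which clears maternal messenger RNA in the zebrafish embryo, was present in both female tissues. miR-430a had 40.8, 29.9 and 36.6 CPM in female liver and 19.8, 14.7 and 16.1 CPM in female gut, and miR-430b had 29.1, 31.5 and 32 CPM in female liver and 19.3, 15.5 and 16.1 CPM in female gut. Neither overlapped and neither was called. The summed miR-430 level was 68.5 to 74.9 CPM in female liver and 32.2 to 41.9 CPM in female gut, against 0.658 to 3.65 CPM in male liver and 0 to 0.597 CPM in male gut.

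**Figure D3:**
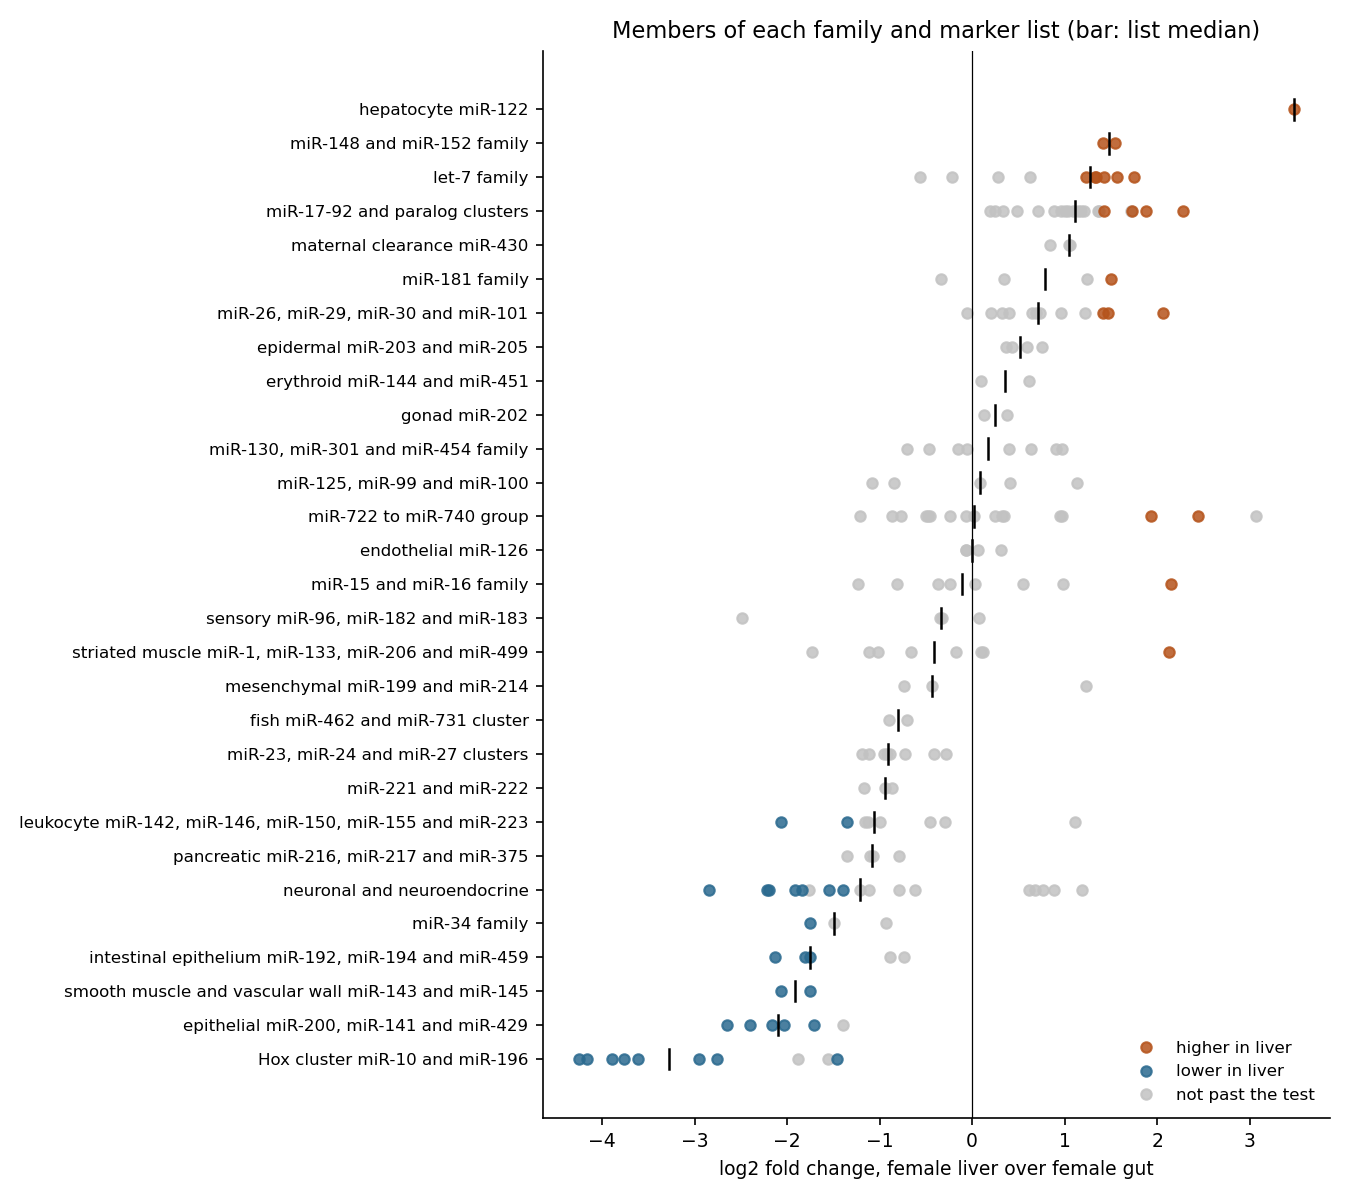
Log2 fold change of female liver over female gut (horizontal axis) for each member with a count of the 29 family and marker lists (vertical axis, ordered by list median); orange marks members higher in liver, blue lower in liver, grey not past the test, and the bar is the list median. Hepatocyte miR-122 stands at the top at 3.48 and the Hox cluster list at the bottom with a median of −3.28.

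A ratio of 2 miRNAs within a library does not depend on the scaling of the library. For 13 of the 34 hairpins with both arms in the table, each arm had over 10 counts in all 6 libraries, and for 9 of these 13 the ratio of the arms did not overlap between the tissues, a share near the 69.3% of all tested miRNAs whose levels did not overlap. The ratio of miR-199-5p to miR-199-3p, the arms of a miRNA of mesenchymal cells, was 3.27, 4.16 and 3.57 in female liver and 1.05, 0.976 and 0.819 in female gut. Thus the 5p arm outnumbered the 3p arm in each liver library and was about level with it in the gut, a log2 difference of 1.95. The ratio of miR-181a-5p to miR-181a-3p was 6.59, 6.56 and 6.42 in female liver and 2.26, 2.56 and 1.79 in female gut, a log2 difference of 1.58. For both the exact two-sided permutation test gave p = 0.1, the smallest possible, and the other 11 ratios moved by less than 1 on the log2 scale. In males the log2 differences were 1.85 for miR-199 and 0.91 for miR-181a.

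Ratios between relatives, picked for description after their values were seen, separated the tissues in the same way. let-7g outnumbered let-7d by 8.88, 10.5 and 9.67 in female liver and by 2.1, 1.8 and 2.02 in female gut. miR-194b stood to miR-194a at 0.0142, 0.00878 and 0.014 in female liver and 0.0327, 0.0319 and 0.0304 in female gut. miR-101b stood to miR-101a at 0.903, 0.92 and 0.874 in female liver and 0.36, 0.327 and 0.36 in female gut. The ratio of the neighbours miR-194a and miR-192, by contrast, overlapped, at 3.74, 3.63 and 3.54 in female liver and 3.3, 2.99 and 3.57 in female gut.

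**Figure D4:**
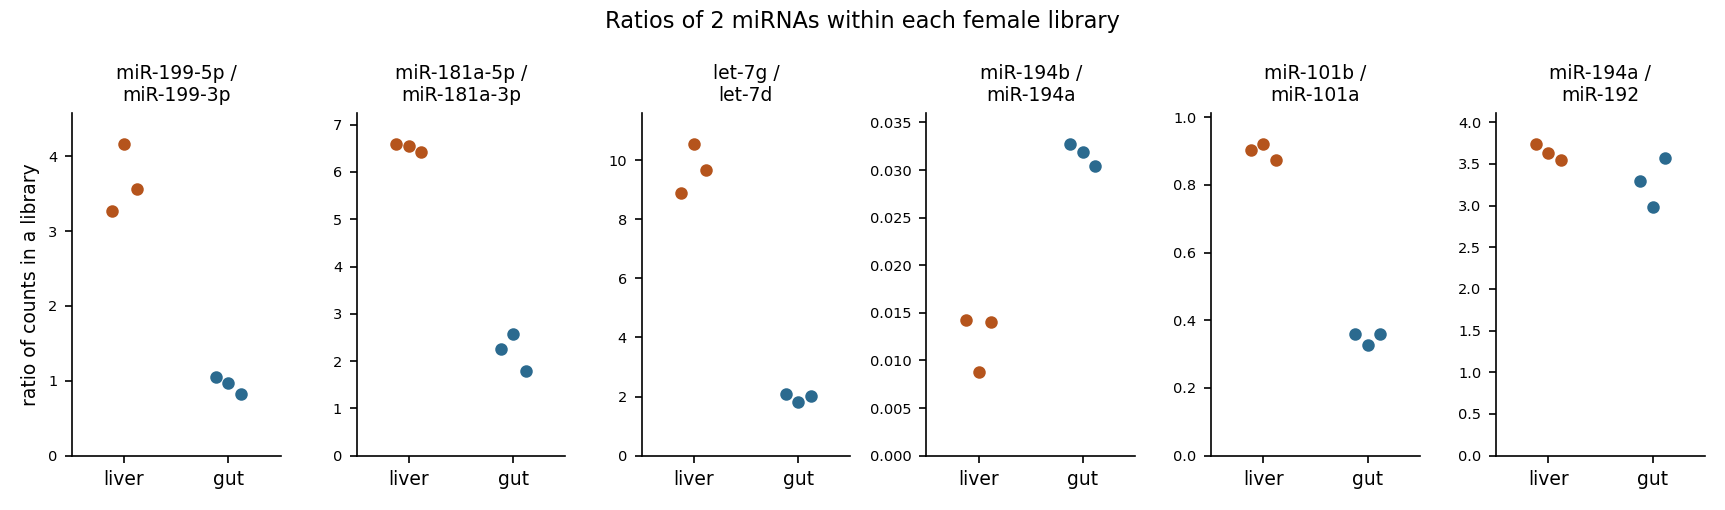
Ratio of the counts of 2 miRNAs in each library (vertical axis, linear and starting at 0) for 6 pairs, with the 3 female liver libraries (orange) left of the 3 female gut libraries (blue). The miR-199 and miR-181a arms, let-7g over let-7d, miR-194b over miR-194a and miR-101b over miR-101a separate the tissues, while miR-194a over miR-192 overlaps.

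The male tissues give the difference between liver and gut in fishes of the other sex. Of 238 miRNAs, 13 (5.46%) were called between male liver and male gut, 12 higher and 1 lower in male liver. All 57 miRNAs called in females had the same sign in males, but only 8 of the 23 higher ones and 1 of the 34 lower ones, miR-194b, were also called there. For the 34 called lower in females, the log2 fold changes ran from −4.25 to −1.35 (median −2.10) in females and from −1.59 to −0.41 (median −1.30) in males, and each of the 34 was larger in size in females. For the 23 called higher in females, they ran from 1.23 to 3.48 (median 1.55) in females and from 0.02 to 4.21 (median 0.93) in males, and 15 of the 23 were larger in females. Both sets were picked for passing a fold threshold in females, which favours larger female values, so nothing is read from these counts. A quasi-likelihood F-test in edgeR, with no threshold on the fold change, asked whether the difference between liver and gut itself differed between the sexes. It did for 63 of 238 miRNAs (26.5%), with the female minus male difference positive for 36 (15.1%) and negative for 27 (11.3%). The negative count rested on single libraries, at 13 without Female Gut replicate 2, 15 without Male Liver replicate 1 and 44 without Female Liver replicate 1, while the positive count ranged from 28 to 38 over the 12 fits without 1 library. The fit of the compared groups alone gave 35 positive and 50 negative differences. Scaling also bears on this split, as 57.1% of the calls were positive with TMM, 71.4% with the size factors of DESeq2 and 2.82% with library size alone. Under all 3 scalings 4 miRNAs stayed positive and 20 stayed negative.

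The 4 positive ones were miR-16b, miR-458, miR-15a-5p and miR-92a. miR-16b, described above for females, had 481, 423 and 356 CPM in male liver and 401, 449 and 396 CPM in male gut, so that its log2 fold change was 2.15 in females and 0.02 in males (difference 2.13 ± 0.21, adjusted p = 1.46e-08). miR-458 turned in sign. It had 20389, 28757 and 24778 CPM in female liver and 12738, 12914 and 11354 CPM in female gut, against 5574, 3879 and 3522 CPM in male liver and 12559, 10564 and 9798 CPM in male gut. Female liver was thus its highest and male liver its lowest of these groups, with log2 fold changes of 1.00 in females and −1.34 in males, neither called by the test against a log2 fold change of 1, and a difference of 2.34 ± 0.23 (adjusted p = 1.46e-08). miR-15a-5p has gene neighbours in miR-16b and, at another place, miR-16c, which was not called in females (log2 0.03). miR-15a-5p had 1340.5, 1819.6 and 1202 CPM in female liver and 743, 763 and 703 CPM in female gut (log2 0.98). Its difference from males was 1.30 ± 0.19 (adjusted p = 1.86e-05). Outside these 4, let-7a, let-7f, let-7g, let-7h and let-7j also had positive differences past the quasi-likelihood F-test with TMM (adjusted p from 0.0026 to 0.0045). With library size alone none of these let-7 differences was past it.

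The negative differences were led by miR-196. miR-196a had 1660.1, 627 and 675 CPM in male liver, far from overlapping the 209, 104 and 93.7 CPM of female liver, while male gut at 2763, 2648 and 2396 CPM lay in the range of female gut. Its log2 fold change was −4.25 in females and −1.39 in males (difference −2.86 ± 0.44, adjusted p = 4.54e-05), and those of miR-196c and miR-196d differed by −2.88 ± 0.53 and −2.62 ± 0.44. For miR-122 the log2 fold change was 3.48 in females and 4.21 in males, and the difference of −0.74 ± 0.44 was not past the test (adjusted p = 0.227). The intestinal miRNAs summed to 138271 to 168443 CPM in female liver, overlapping the 121001 to 174348 CPM of male liver, whereas the miR-200, miR-141 and miR-429 list summed to 1270 to 1663 CPM in female liver, below the 1808 to 3049 CPM of male liver.

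**Figure D5:**
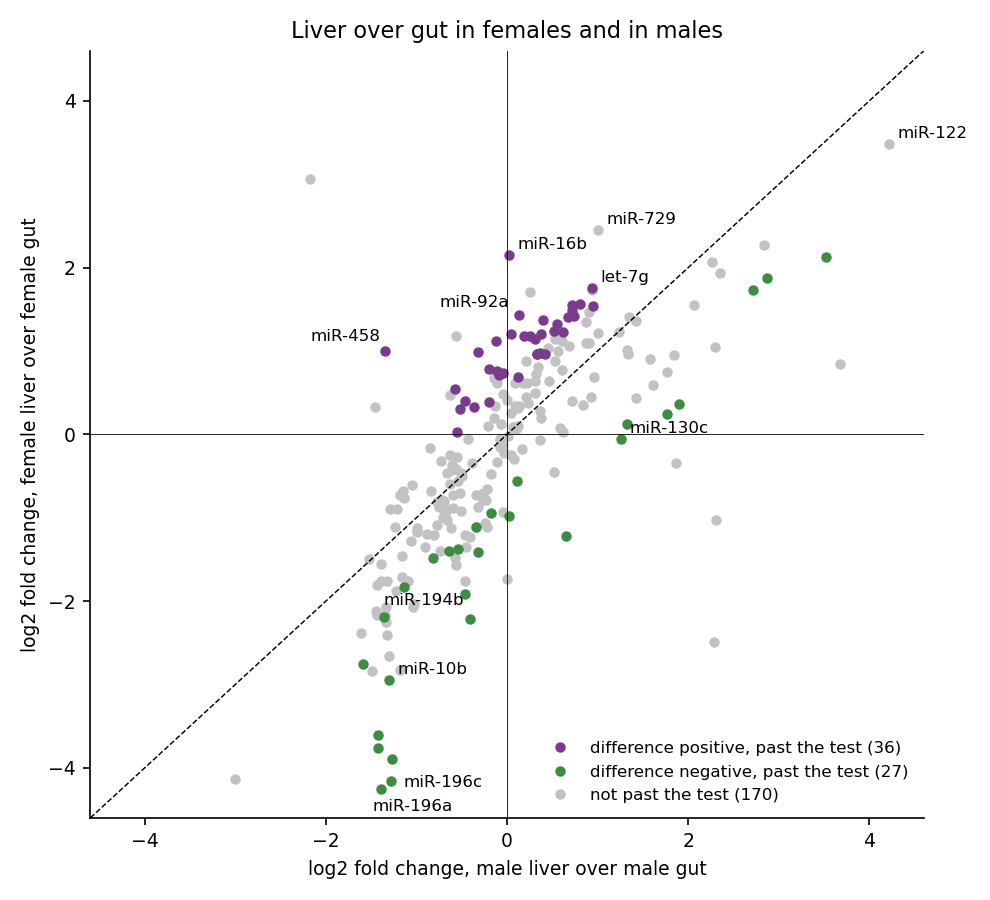
Log2 fold change of female liver over female gut (vertical axis) against that of male liver over male gut (horizontal axis) for the 233 miRNAs; purple and green mark positive and negative female minus male differences past the test, grey the rest, and the dashed line is equality. The miR-196 members lie near −4 in females and near −1.3 in males, and miR-122 lies at 3.48 in females and 4.21 in males.

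The mean levels of the called miRNAs were also ranked among all 11 sample groups. Of the 23 called higher, female liver had the highest mean of all groups for 12, and one of the liver groups for 16. miR-16b, for example, was next highest in female brain, at a median of 1901 CPM, against 3679 CPM in female liver. miR-722 and miR-101b were highest in the liver groups, miR-722 at a median of 5317 CPM in female liver and 5776 CPM in male liver, ranges that overlapped. Of the 34 called lower, a gut group was highest for 19 and a brain group for 11. Female gut itself was highest for 10, among them miR-200c, at a median of 1272 CPM, against 1236 CPM in male gut with overlapping ranges. Both sets were picked for a higher level in female liver or in female gut, which favours a liver or gut group ranking first. The same counts over all miRNAs are not given here, so nothing is read from them.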

How the data were processed

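Small RNA libraries (TruSeq kit, Illumina) were analysed from the deposited table of read counts. Per the labels and the study's methods, the authors called bases with CASAVA 1.8.2, trimmed adapters with cutadapt, kept reads of at least 18 nt and counted them with the miRDeep2 quantifier on the known mature miRNAs listed in miRBase Release 19. The deposited counts are not normalized, and versions of the other tools are not given in the sources used here. Size selection, adapter ligation and PCR without molecular identifiers can favour some sequences, so levels of different miRNAs are not absolute, and limits from counts cover counting error only. The table deposited after TMM normalization was not used.

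Groups were taken from the labels. In R 4.3.3 with edgeR 4.0.16, TMM factors were computed and all 32 libraries entered a quasi-likelihood model with 1 coefficient for each sample group, 3 libraries per group and 2 for heart (a further heart sample is not analysed here). Contrasts of liver over gut were tested by glmTreat with a log2 threshold of 1, and the female minus male difference with the quasi-likelihood F-test. Standard errors were computed from the log2 fold change and the F statistic of the test against no change, not from glmTreat. Benjamini-Hochberg adjustment of p-values ran over 238 miRNAs, which were called at 0.05 or below. The fit was tested on simulated data. Shares and ratios were compared with exact permutation tests in scipy 1.17.1. Alternatives were the size factors and the test of DESeq2 1.42.0, a low-count filter, library size alone, likelihood ratio tests, a threshold on the fold change set after testing, fits of the compared groups alone, replicate blocks, an adjusted p of 0.01 and leaving out each library.

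The miRNAs compared and the family and marker lists were chosen with earlier results of these data known. By rule the text names the 15 called miRNAs with the largest and the 15 with the smallest log2 fold change, the 5 most abundant of each tissue, list members, the 10 with the smallest p in the female against male test, and arms of 1 hairpin. Gene neighbours come from RefSeq (GRCz12tu), in which 201 of 204 hairpins matched. Mature sequences were not used here.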

Additional observations from a re-analysis of the deposited data

Results flagged for a closer look

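The 10 miRNAs listed here had the smallest p in the test of whether the liver over gut difference differs between females and males. That test (edgeR quasi-likelihood F-test, adjusted over 238 miRNAs) was passed by 63 miRNAs (26.5%). The 10 were picked by their p in it, so that they passed is no result in itself. The female minus male difference in log2 fold change was 2.34 ± 0.23 for miR-458, 2.13 ± 0.21 for miR-16b, 1.30 ± 0.19 for miR-15a-5p, 1.30 ± 0.20 for miR-92a, 1.12 ± 0.23 for miR-16a and 0.92 ± 0.16 for miR-17a-5p (± standard error), all positive. It was −2.88 ± 0.53 for miR-196c, −2.86 ± 0.44 for miR-196a, −2.62 ± 0.44 for miR-196d and −1.32 ± 0.22 for miR-130c, all negative. The adjusted p ranged from 1.46e-08 to 0.00128. With library size alone, miR-17a-5p and miR-16a were no longer past the test.

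miR-130c had 276, 335 and 306 CPM in female liver and 339, 355 and 261 CPM in female gut, against 1120.0, 1466 and 1282 CPM in male liver and 587, 552 and 474 CPM in male gut. Its log2 fold change was −0.06 in females and 1.26 in males, and the cause of any of these differences was not tested.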

How the results depend on the processing

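The 23 higher and 34 lower calls became 9 and 64 with library size alone and 42 and 55 where the threshold on the fold change came after testing. The other settings named above, all libraries kept, gave 20 to 29 higher and 23 to 39 lower. TMM factors without the let-7 family and miR-122, a setting chosen after seeing the data, gave 29 and 29. Without 1 library at a time, higher calls ranged from 22 to 31 and lower calls from 25 to 35, and 22 of the 23 and 24 of the 34 were called in every such fit. The calls lost at least once were let-7j, miR-10c, miR-137, miR-142a-3p, miR-153b, miR-200a, miR-459-5p, miR-7a and miR-9-5p, and miR-190a and miR-489, named here after their values were seen. Leaving out female liver replicate 2 cost the largest number of calls, 11. That fit gave 25 lower calls, 24 of them shared with the main fit. The 63 female minus male differences became 142 with library size alone and 24 at an adjusted p of 0.01, and ranged from 44 to 82 without 1 library. The share difference of let-7 ranged from 14.0 to 14.4 percentage points without 1 library, and was 19.5 points outside miR-21 and miR-122. With library size alone the log2 fold changes of some miRNAs that were not called turned negative. Examples are let-7i, miR-21 and miR-30b, at −0.21, −0.21 and −0.17, and miR-126a-3p, at 0.06 with TMM and −0.41 with library size alone. Depth limits rare miRNAs most: 6 of the 233 had at most 3 counts in every library.

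The sources used here do not say whether liver and gut libraries of the same replicate number came from the same fishes. Libraries of the same number had correlations of deviations of −0.033, −0.124 and −0.053 over 189 miRNAs, and none correlated best with its own number. With 3 libraries per tissue, such weak correlations cannot decide whether the pools were shared. With the replicate block the calls were 23 higher and 34 lower in all libraries and 22 and 37 in the compared groups alone, and the female minus male differences were 61 and 89.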
